A study of Mus musculus with 3 samples.

Results

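The heat shock genes described here are 10 genes taken by symbol from the 32285 genes of the deposited count tables. They comprise 4 genes known as testis members of their families (Hspa2, Hspa1l, Hspa4l and Dnajb13), 3 general members (Hspa8, Hsp90aa1 and Hsp90ab1) and 3 stress-induced members (Hspa1a, Hspa1b and Hsph1). All 10 symbols were present once in the tables and all 10 were detected. The study profiled single cells of adult mouse testis and compared a conditional knockout of Tex10 with wildtype. There were 3 libraries of droplet 3′ single-cell RNA-seq, all from C57BL/6N mice: wildtype replicate 1 from 1 mouse, wildtype replicate 2 from 1 mouse, and a knockout library whose cells were pooled from 2 conditional knockout mice. Testes were dissociated with collagenase IV, so all groups share that treatment. The driver of the deletion, the deleted exons and the exact age are not given in the sources used here.

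Heat shock proteins are molecular chaperones. HSP70 proteins bind unfolded stretches of client proteins in a cycle of ATP binding and hydrolysis that J-domain proteins start and nucleotide exchange factors of the HSP110 group complete, and HSP90 proteins take over later folding steps of kinases, receptors and other clients. Under heat, heat shock factors bind paired GAA and TTC units upstream of the inducible genes, while the male germ line carries its own HSP70 genes that meiotic and haploid cells transcribe without heat.

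Since the knockout was 1 library, no test between genotypes was made. Levels are UMIs of a gene summed over the cells of a class in 1 library and scaled so that all genes of the class add up to 1000000 (CPM). They are given in the order wildtype replicate 1, wildtype replicate 2 and knockout. Intervals are exact 95% Poisson intervals for levels and exact Clopper-Pearson intervals for shares, and cover counting error only. Reads were counted at the 3′ end, so a level does not scale with transcript length. Wildtype spread is the SD of 2 libraries.

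The libraries held 9967, 10153 and 12918 barcodes with 93418341, 96001773 and 147783171 UMIs, and 7519, 7704 and 11084 barcodes were kept. Clusters were named anew from fixed markers, because no annotation of cells was used here, and each name means cells like that type. Clusters of low UMI content held 54.4%, 39.6% and 63.7% of the kept cells and stayed unnamed. The deep germ cells formed 11 clusters, ordered by their marker content into 1 of spermatogonia, 2 of early spermatocytes, 1 unnamed, 2 of late spermatocytes, 2 of round spermatids and 3 of elongating spermatids. The unnamed cluster was led by Stambp, Adad2, Piwil1 and Ccnb1ip1 and lay between the early and the late spermatocytes. Counts of Tex10 were 45.0, 40.9 and 35.1 CPM over all kept cells, but a 3′ tag may lie outside the deleted part and checks nothing. Between 27 and 30 barcodes were shared by each pair of libraries. Spermatogonia held 11 spermatid transcripts at a median of 10.5%, 12.2% and 10.8% of their level in the whole library, which is the scale of free RNA against which low levels should be read.

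Positions are on GRCm38 with GENCODE annotation, and the sequences are RefSeq promoters of GRCm38.p6. Entries matched 7 of the 10 members. Hspa1a (chr17:34969190-34972156, minus strand, a single exon) and Hspa1l (chr17:34972703-34979285, plus strand) are neighbours whose starts lie 547 bases apart and point away from each other. Hspa1b (chr17:34956436-34959238, minus strand, a single exon) starts 9952 bases beyond the end of Hspa1a. The sequences upstream are shown because these neighbours were highest in different cells, Hspa1l in spermatids and Hspa1a in somatic cells, though round spermatids held some Hspa1a too. In 250 bases upstream of each RefSeq start, a heat shock element pair (GAANNTTC or TTCNNGAA, both strands) was found in Hspa1a, Hspa1b and Hsph1, and in none of Hspa2, Hspa1l, Hspa4l and Dnajb13. Of 32851 promoters of the same length, 12.8% held it. The RefSeq starts of Hspa2, Hspa4l and Dnajb13 lie 194, 1118 and 145 bases inside the GENCODE genes, so these windows do not cover the bases upstream of the GENCODE starts in full. The Hsph1 element likewise lies inside the GENCODE span of Hsph1. The Hspa1a and Hspa1b windows differed at 3 of 250 bases. The 30 bases around each element are given 5′ to 3′ on the gene's strand, with the element in capitals. They lie at chr17:34972242-34972271 (Hspa1a), chr17:34959324-34959353 (Hspa1b) and chr5:149636351-149636380 (Hsph1), all on the minus strand.
Hspa1a: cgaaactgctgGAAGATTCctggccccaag
Hspa1b: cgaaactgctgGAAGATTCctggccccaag
Hsph1: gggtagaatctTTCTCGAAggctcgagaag

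The 250 bases before the start of Hspa1a (chr17:34972157-34972406, minus strand) have the same element in capitals, 104 to 97 bases before the start. The 250 bases before Hspa1l (chr17:34972453-34972702, plus strand) have in capitals TGACGT, the core letters of a cAMP response element, at 71 to 66 bases before the start. TGACGT on either strand was in 6.47% of all promoters and, among the members with a matched entry, in Hspa1l alone. For Hspa2, the 80 bases before its RefSeq start (chr12:76404290-76404369, plus strand) are shown with ATTGG, the CCAAT box read on the other strand, in capitals. CCAAT was in 33.8% of all promoters.
Hspa1a upstream: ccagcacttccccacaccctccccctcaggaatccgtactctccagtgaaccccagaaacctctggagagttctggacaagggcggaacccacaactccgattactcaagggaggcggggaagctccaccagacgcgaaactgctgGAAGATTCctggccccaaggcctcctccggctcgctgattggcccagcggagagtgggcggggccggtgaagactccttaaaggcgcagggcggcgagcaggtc
Hspa1l upstream: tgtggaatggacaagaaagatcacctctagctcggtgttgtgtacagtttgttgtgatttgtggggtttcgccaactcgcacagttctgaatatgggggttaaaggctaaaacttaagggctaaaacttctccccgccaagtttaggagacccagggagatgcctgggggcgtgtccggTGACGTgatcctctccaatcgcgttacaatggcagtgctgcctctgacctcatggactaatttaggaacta
Hspa2 upstream: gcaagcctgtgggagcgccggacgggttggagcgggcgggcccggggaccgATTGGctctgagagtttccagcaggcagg

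Hspa2 (chr12:76404176-76406938, plus strand), the HSP70 that spermatocytes need to complete meiosis, was highest in mid to late meiosis and low at both ends of the lineage. Its level was 99.1, 136 and 124 CPM in spermatogonia, 1031, 1007 and 933 CPM in early spermatocytes, and 1919, 1935 and 1874 CPM in the unnamed cluster. It stood at 1400.3, 1322 and 1391 CPM in late spermatocytes, 515, 577 and 536 CPM in round spermatids and 67.0, 75.1 and 71.2 CPM in elongating spermatids. The order of the 6 germ classes was the same in all 3 libraries, and the highest class exceeded the lowest by 28.6, 25.8 and 26.3 times. The steepest step up lay between the first and the second early spermatocyte cluster, from 274, 272 and 329 CPM to 1501, 1605 and 1367 CPM. The steepest step down lay inside the round spermatids, from 752, 732 and 835 CPM to 154, 144 and 164 CPM. Spermatogonia held Hspa2 at 10.8%, 16.1% and 15.2% of its library level, close to the 11 spermatid transcripts, so its low level there was not separable from free RNA. Myoid cells held 356, 345 and 339 CPM, or 39.0%, 40.9% and 41.4% of the library level. The 12 spermatid transcripts in the same cells had medians of 17.2%, 19.8% and 16.6% and highest values of 50.02%, 37.5% and 41.0%, so Hspa2 lay above their median in all libraries and above their highest in 2 of 3.

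**Figure D1:**
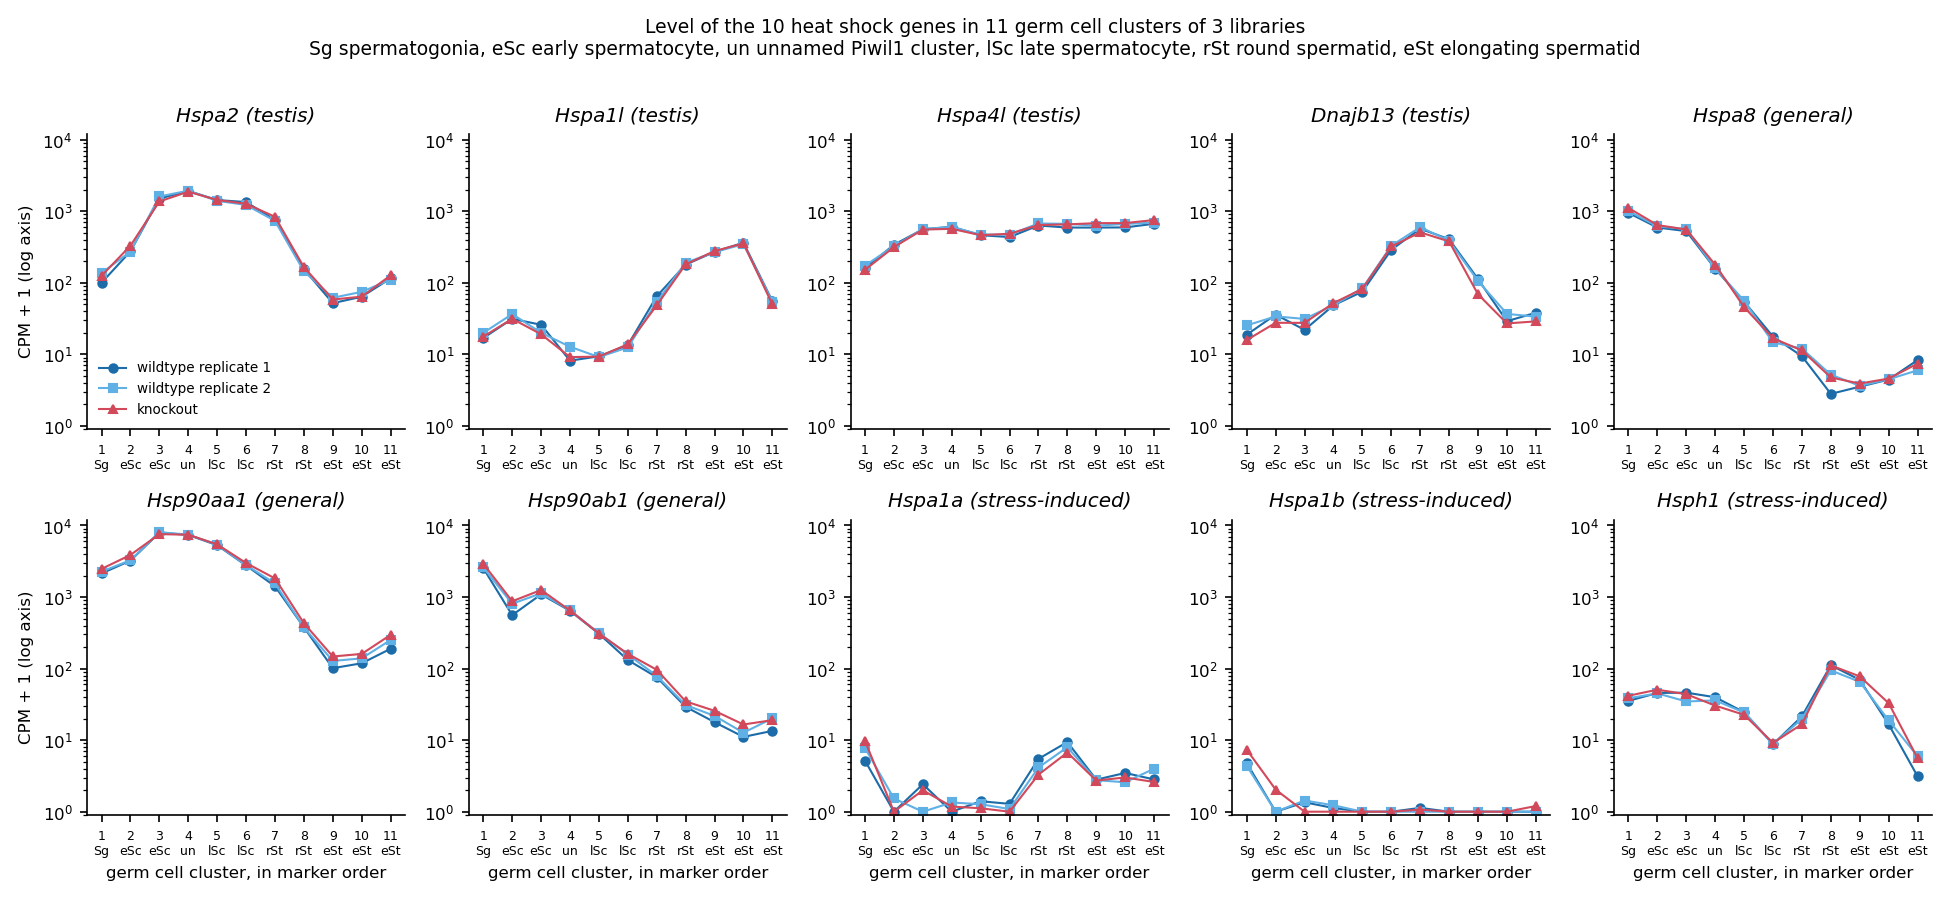
Levels of the 10 members (CPM + 1, log axis) in the 11 germ clusters in marker order, with 1 line for each of the 3 libraries. Hspa2 peaks in germ clusters 3 to 6, Hspa1l in 9 and 10 and Dnajb13 in 7, while Hspa8 and Hsp90ab1 are highest in cluster 1, the spermatogonia.

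Hspa1l, a testis HSP70 gene of haploid cells, was found where Hspa2 was leaving. Its level was 15.9, 18.9 and 16.7 CPM in spermatogonia, 27.0, 26.4 and 23.2 CPM in early spermatocytes and 9.78, 9.59 and 9.48 CPM in late spermatocytes. It was 109, 88.7 and 106 CPM in round spermatids and 256, 248 and 268 CPM in elongating spermatids. In spermatogonia it stood at 19.3%, 22.2% and 17.2% of its library level, above the median of the spermatid transcripts there and inside their range. By cluster, the level went from 12.5, 11.5 and 12.8 CPM in the second late spermatocyte cluster to 63.7, 53.0 and 47.3 CPM in the first round spermatid cluster. It reached 362, 346 and 355 CPM in the second elongating cluster and was 54.5, 53.2 and 48.9 CPM in the last one. An antisense gene, Gm10501, overlaps 1778 exon bases of Hspa1l, and whether strand was used in counting is not given in the sources used here.

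The pair of testis HSP70 genes changed places within the spermatids. Among the UMIs of both genes, Hspa2 took 92.2%, 93.2% and 94.6% in the first round spermatid cluster and 46.3%, 43.3% and 47.8% in the second. It took 15.9%, 18.5% and 17.2% in the first elongating cluster and 14.8%, 17.6% and 15.1% in the second. In the last elongating cluster the share was again higher, at 67.7%, 67.4% and 72.0%. Hspa1l was there at 0.15, 0.15 and 0.14 times and Hspa2 at 1.82, 1.49 and 1.99 times its level in the cluster before. In elongating spermatids as a whole, Hspa2 was at 7.33%, 8.89% and 8.70% of its library level. The 13 spermatogonia markers there had medians of 14.9%, 16.2% and 12.1%, so the Hspa2 level was not separable from free RNA. The 3 libraries thus followed the same course, and the shares of neighbouring clusters did not overlap between libraries except in the first and second elongating clusters.

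Hspa4l, a testis-rich member of the HSP110 group of exchange factors (chr3:40744495-40796103, plus strand), was the flattest of the testis genes. It was lowest among germ cells in spermatogonia, at 159, 173 and 151 CPM. Its level was 474, 455 and 453 CPM in early spermatocytes, 605, 601 and 566 CPM in the unnamed cluster and 452, 470.0 and 467 CPM in late spermatocytes. Round spermatids held 614, 671 and 646 CPM and elongating spermatids 606, 652 and 693 CPM, and these classes did not differ beyond the spread between libraries. Across the 7 classes compared, the highest exceeded the lowest, the myoid cells, by 5.0, 5.6 and 6.2 times. Myoid cells held Hspa4l at 23.9%, 22.1% and 20.7% of its library level. The spermatid transcripts there had medians of 17.2%, 19.8% and 16.6%, and Hspa4l lay above these and inside their range. In the last elongating cluster, where most members were low, Hspa4l was still at 667, 691 and 752 CPM.

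Dnajb13, a J-domain protein of the radial spoke of motile cilia and the sperm tail (chr7:100501716-100514960, minus strand), had a narrow peak. It was at 17.8, 24.3 and 14.8 CPM in spermatogonia, 148, 188 and 144 CPM in late spermatocytes, 504, 542 and 448 CPM in round spermatids and 71.0, 67.6 and 44.7 CPM in elongating spermatids. In spermatogonia, Dnajb13 was at 10.5%, 12.2% and 9.17% of its library level. The spermatid transcripts there had medians of 10.5%, 12.2% and 10.8%, so Dnajb13 was not separable from free RNA. The second late spermatocyte cluster held 288, 328 and 320.4 CPM and the first round spermatid cluster 568, 598 and 506 CPM, so its level went up before that of Hspa1l. Ucp2, on the other strand, overlaps 305 exon bases of Dnajb13 and was at 1.9, 1.3 and 1.8 CPM in elongating spermatids.

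Of the general members, Hspa8 and Hsp90ab1 were lower at each later germ class, and Hsp90aa1 was highest in meiosis. Hspa8, the constitutive cytosolic HSP70 (chr9:40800984-40810087, plus strand), was at 947, 1005 and 1109.6 CPM in spermatogonia, 551, 586 and 589 CPM in early spermatocytes and 156, 158 and 177 CPM in the unnamed cluster. It was at 40.8, 37.1 and 37.1 CPM in late spermatocytes, 5.80, 9.22 and 7.40 CPM in round spermatids and 3.74, 3.39 and 3.77 CPM in elongating spermatids. Spermatogonia exceeded elongating spermatids by 253, 296 and 294 times. In elongating spermatids, Hspa8 was at 3.43%, 2.98% and 3.07% of its library level. The 13 spermatogonia markers there had medians of 14.9%, 16.2% and 12.1%, so the Hspa8 left was not separable from free RNA. Somatic cells were nearer to spermatogonia, with 1050.0, 1119 and 978 CPM in Sertoli cells and 663, 633 and 652 CPM in myoid cells. Of the 31-base words in the last 500 bases of Hspa8 transcripts, 73.4% also occur in other annotated genes, none of them in the tables, and the effect of reads that map to several places on its counts was not tested.

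Hsp90ab1, the constitutive cytosolic HSP90 (chr17:45567775-45573271, minus strand), had a profile close to that of Hspa8. Its level was 2536, 2590.1 and 2913 CPM in spermatogonia, 886, 983 and 1094 CPM in early spermatocytes and 642, 654 and 648 CPM in the unnamed cluster. It was 246, 245 and 269 CPM in late spermatocytes, 56.4, 65.5 and 68.0 CPM in round spermatids and 13.9, 17.5 and 19.98 CPM in elongating spermatids. In elongating spermatids, Hsp90ab1 was at 4.32%, 5.33% and 5.76% of its library level. This was below the medians of the spermatogonia markers there and not separable from free RNA. Pearson's r of log2(CPM + 1) between Hspa8 and Hsp90ab1 over 15 named clusters was 0.97, a description of clusters that share libraries and depth. Sertoli cells held 1517, 1470.2 and 1512 CPM.

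Hsp90aa1, the inducible cytosolic HSP90 (chr12:110690605-110702728, minus strand), stayed high through meiosis and was the most abundant member in every germ class from early spermatocytes to round spermatids. Its level was 2138, 2265 and 2474 CPM in spermatogonia, 6139, 5915 and 6030.2 CPM in early spermatocytes and 7381, 7449.5 and 7432 CPM in the unnamed cluster. It was 4432, 4281 and 4803 CPM in late spermatocytes, 1002, 1241 and 1201 CPM in round spermatids and 123, 156 and 177 CPM in elongating spermatids. Hspa8 and Hsp90ab1 were highest in spermatogonia among germ classes, whereas Hsp90aa1 was higher in spermatocytes than in spermatogonia, and its r with Hspa2 was 0.84 over the same 15 clusters.

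These profiles exchanged the family members within each chaperone class. Hspa2 and Hspa1l together made up 10.8%, 13.2% and 11.1% of the UMIs of the 5 cytosolic HSP70 members in spermatogonia. They made up 65.7%, 63.8% and 61.8% in early spermatocytes, 92.5%, 92.5% and 91.4% in the unnamed cluster and 97.2%, 97.3% and 97.4% in late spermatocytes. The share was between 98.0% and 98.4% in round and elongating spermatids of all libraries. The change fell between the first early spermatocyte cluster, at 34.0%, 33.4% and 36.0%, and the second, at 74.3%, 74.2% and 71.4%. Hsp90aa1 took 45.7%, 46.6% and 45.9% of the HSP90 pair in spermatogonia, 87.4%, 85.8% and 84.6% in early spermatocytes and 94.7%, 94.6% and 94.7% in late spermatocytes. Sertoli cells stood nearest to spermatogonia among germ classes on both measures, with a testis HSP70 share of 17.5%, 18.7% and 20.5% and an Hsp90aa1 share of 32.2%, 35.4% and 36.9%. They held Hspa2 at 22.4%, 24.5% and 23.6% and Hsp90aa1 at 23.8%, 28.2% and 30.7% of the library level. The 12 spermatid transcripts there had medians of 21.0%, 27.5% and 25.5%, so Hspa2 and Hsp90aa1 in Sertoli cells were not separable from free RNA. Hspa1l was above these medians, at 24.5%, 66.9% and 64.5%.

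**Figure D2:**
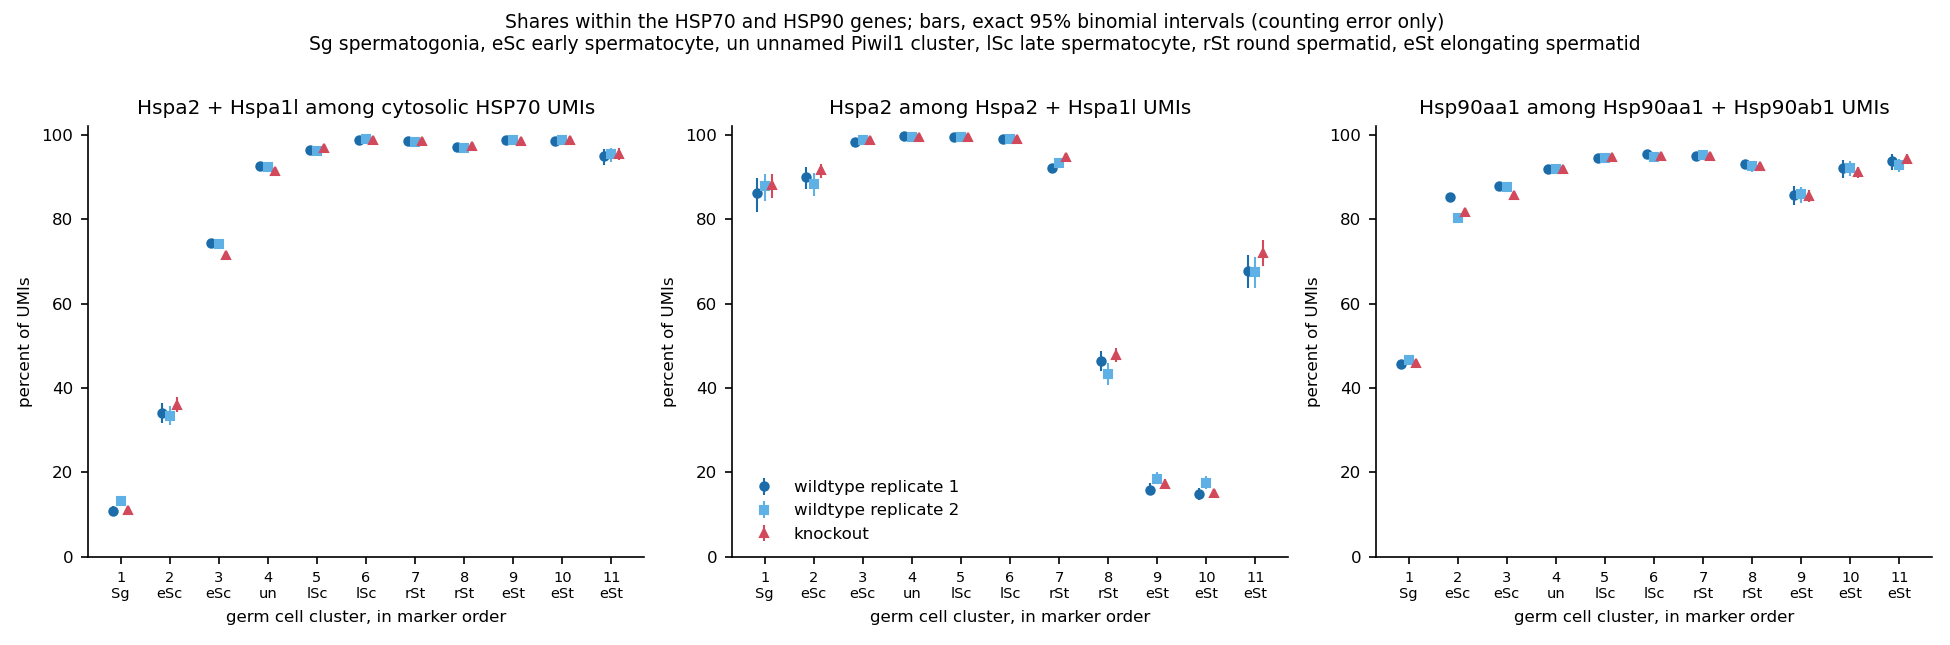
Shares (percent of UMIs, with exact 95% binomial intervals) of the testis HSP70 genes among 5 HSP70 genes, of Hspa2 among Hspa2 and Hspa1l, and of Hsp90aa1 among the HSP90 pair, by germ cluster and library. The testis HSP70 share passes 50% between germ clusters 2 and 3 in all 3 libraries, and the Hspa2 share is 92.2% to 94.6% in cluster 7 and 15.9% to 18.5% in cluster 9.

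The stress-induced HSP70 genes were rare in germ cells and highest in somatic cells. Hspa1a was at 4.16, 6.76 and 8.74 CPM in spermatogonia, 0.362, 0.194 and 0.0857 CPM in late spermatocytes, 6.03, 4.15 and 3.82 CPM in round spermatids and 2.02, 1.95 and 1.82 CPM in elongating spermatids. Peritubular myoid cells held 141, 127 and 138 CPM, from 80, 60 and 97 UMIs. Macrophages held 192, 114 and 86.6 CPM, from 10, 5 and 21 UMIs, and interstitial fibroblasts 69.5, 84.7 and 47.1 CPM. After thinning each cell to 1000 UMIs, an Hspa1a UMI was found in 9.57%, 5.26% and 15.8% of myoid cells. In late spermatocytes it was found in 0 of 624, 0 of 756 and 0 of 528 cells. The exact upper limits for these shares of thinned cells with a UMI are 0.589%, 0.487% and 0.696%. They set no limit on cells that express the gene. Unthinned, the myoid shares were 46.8%, 36.8% and 47.4% at median depths of 6006.5, 5276 and 7338 UMIs, and those of late spermatocytes 1.76%, 0.661% and 0.568% at 31705.5, 24303.5 and 43553 UMIs. Late spermatocytes were low among germ classes. In round spermatids the thinned shares were 1.20%, 0.437% and 0.171%, and the unthinned ones 13.7%, 8.45% and 14.3% at 29243, 23988 and 39923 UMIs. Round spermatids held Hspa1a at 183%, 140% and 129% of its library level. Sertoli cells, a somatic type of the tubule itself, held 7.57, 9.001 and 5.49 CPM, from 3, 3 and 8 UMIs.

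Hspa1b, whose upstream window is nearly that of Hspa1a, was lower than Hspa1a in myoid cells, at 58.2, 25.4 and 34.2 CPM, and in spermatogonia, at 3.78, 3.38 and 6.35 CPM. In Sertoli cells it was at 5.05, 21.0 and 7.55 CPM, from 2, 7 and 11 UMIs, above Hspa1a in 2 of 3 libraries. It had 0 UMIs in late spermatocytes of all libraries. Its r with Hspa1a over the 15 clusters was 0.89. Gm20481, on the other strand, overlaps 377 exon bases of Hspa1a.

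Immediate early genes, which tissue dissociation is known to raise, were highest in the same 3 cell types as Hspa1a. The summed level of 15 such genes was 16158, 15063 and 19131 CPM in myoid cells, 15613, 16444 and 18488 CPM in macrophages and 26763, 16787 and 11841 CPM in fibroblasts. Leydig cells, kept in wildtype replicate 2 and the knockout library only, held 4961 and 4403 CPM beside 23.3 and 11.7 CPM of Hspa1a. Sertoli cells held 1774, 1374 and 2113 CPM, spermatogonia 474, 414 and 600 CPM, and elongating spermatids 413, 374 and 427 CPM. Sertoli cells thus had a higher sum than spermatogonia in all libraries, but less Hspa1a in the knockout library. All 3 cell types with Hspa1a above 40 CPM were thus those with the highest summed immediate early level, and Dusp1, 1 of the 15, had the pattern most like Hspa1a of 9407 genes (r = 0.94). In wildtype replicate 1, fibroblasts had the highest sum of these 3 types but the least Hspa1a. The part of the dissociation in the level of Hspa1a was not tested.

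**Figure D3:**
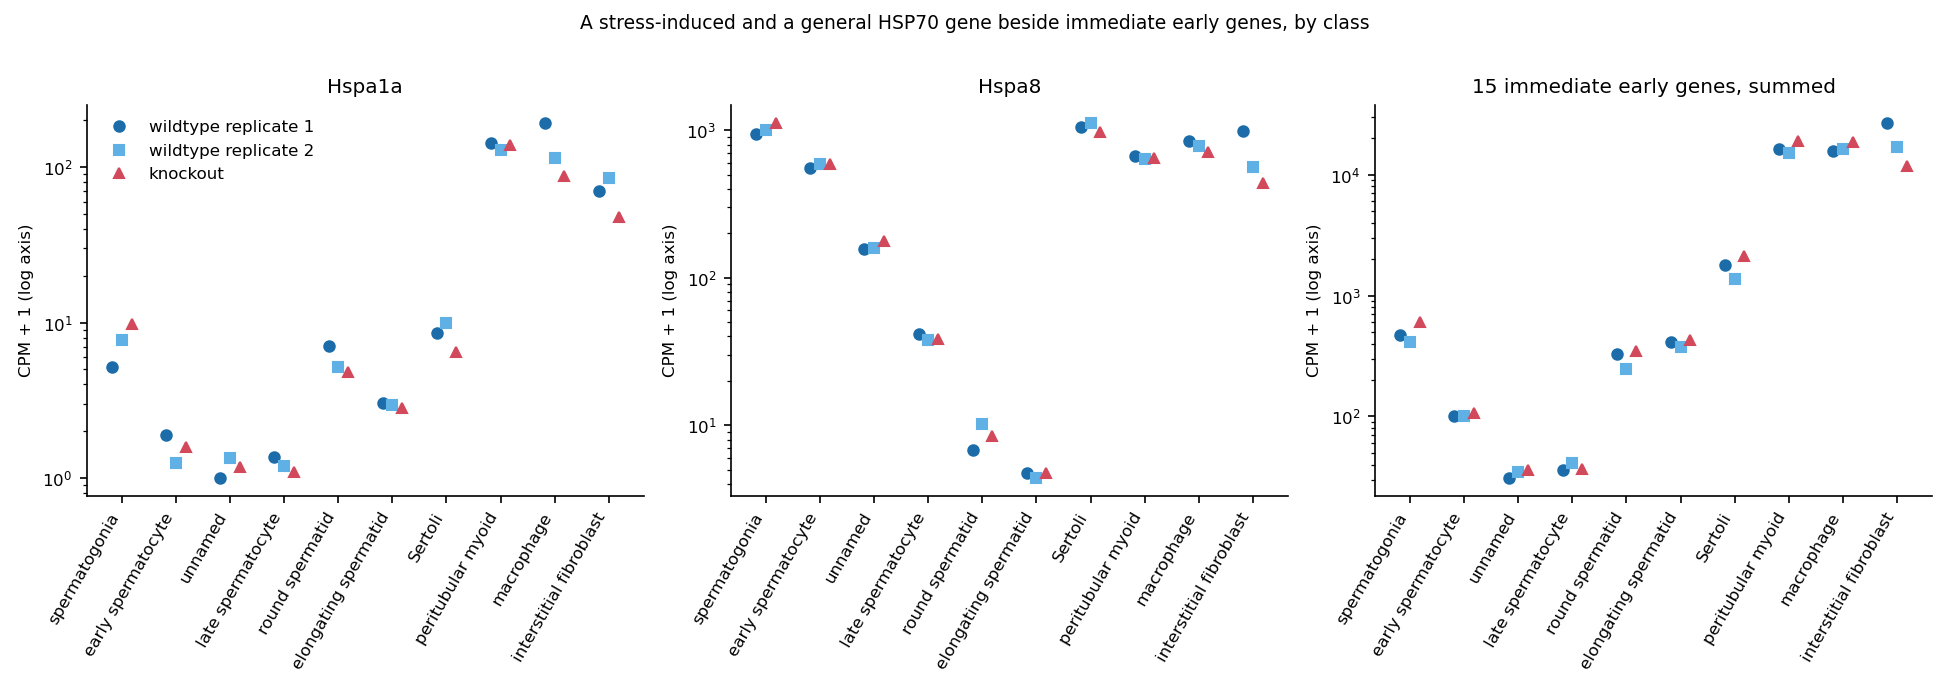
Levels (CPM + 1, log axis) of Hspa1a, Hspa8 and 15 summed immediate early genes in germ and somatic classes, with 1 point for each library. Hspa1a and the immediate early genes are both highest in myoid cells, macrophages and fibroblasts, while Hspa8 is high in spermatogonia and all somatic classes.

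Hsph1, the inducible HSP110 (chr5:149614287-149636376, minus strand), was above 90 CPM in a round spermatid cluster, where Hspa1a was at 8.41, 6.97 and 5.71 CPM and Hspa1b had 0 UMIs. Its level was 34.4, 37.5 and 40.8 CPM in spermatogonia, 18.1, 16.7 and 18.1 CPM in late spermatocytes, 56.2, 38.5 and 57.7 CPM in round spermatids and 51.2, 72.0 and 37.0 CPM in myoid cells. By cluster it was at 7.76, 7.79 and 8.15 CPM in the second late spermatocyte cluster, 111, 93.4 and 110.0 CPM in the second round spermatid cluster and 2.13, 4.98 and 4.61 CPM in the last elongating cluster. The class values average over this peak, so neighbouring classes overlap where the clusters do not.

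The genes with the pattern most like each testis member over the 15 clusters, among 9407 genes, were as follows. Hspa2 was closest to Morc2b (r = 0.98), Cfap36 (0.97) and Pde1c (0.97). Hspa1l was closest to Tnp2, 4921507P07Rik and Tnp1 (each 0.98), of which Tnp1 and Tnp2 encode the transition proteins that replace histones. Hspa4l was closest to Cep57l1 (0.95), Fxr1 (0.91) and Rsph3a (0.91), the last a radial spoke gene. Dnajb13 was closest to 1700034K08Rik (0.97), Efcab10 (0.96) and Ppp1r32 (0.96).

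Among 77 other genes of the chaperone system, 71 reached 20 CPM in at least 1 of the 7 classes compared. Their highest class was spermatogonia for 13, early spermatocytes for 15, the unnamed cluster for 6, late spermatocytes for 14, round spermatids for 4, elongating spermatids for 9 and myoid cells for 10. Of the J-domain co-chaperones, 7 of 22 were highest in elongating spermatids, against 9 of all 71, among them Dnajb3 at 3065, 3033 and 3339 CPM and Dnajb8 at 2528, 2440.0 and 2613 CPM. Dnajb6 was highest in late spermatocytes at 800.2, 764 and 789.5 CPM. Of the small heat shock proteins, Hspb9 was highest in elongating spermatids at 3723, 3527 and 3721 CPM and Hspb1 in myoid cells at 1351, 1462 and 1325 CPM. Hspa5, the HSP70 of the endoplasmic reticulum, was highest in early spermatocytes at 1766, 1948 and 2226 CPM. Bag1, an exchange factor of HSP70, was at 1911, 1946 and 2096 CPM in elongating spermatids, and Bag5, another of the BAG family, at 889.8, 896 and 961 CPM in round spermatids. Hsp90b1, the HSP90 of the endoplasmic reticulum, was at 1625, 1648 and 1691 CPM in early spermatocytes. All 11 chaperonin genes had their highest class between spermatogonia and late spermatocytes, among them Tcp1 in late spermatocytes at 1764, 1775 and 2659 CPM, Cct7 there at 821, 777 and 862 CPM, and Hspe1, the mitochondrial co-chaperonin, in spermatogonia at 905, 866 and 962 CPM.

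Of the heat shock transcription factors, Hsf1, the factor of the heat response, was highest in spermatogonia at 42.0, 40.2 and 39.2 CPM. Hsf2 was at 50.3, 67.3 and 48.4 CPM in spermatogonia and 47.6, 54.0 and 41.3 CPM in round spermatids. Hsf5 was highest in the unnamed cluster at 250, 256 and 232 CPM, and Hsfy2 in round spermatids at 284, 307 and 233 CPM. The unnamed cluster was also the class in which Hspa2 and Hsp90aa1 were highest. By single cluster, however, Hsp90aa1 was highest in the second early spermatocyte cluster, at 7946, 8068 and 7574 CPM. Hsbp1, which binds heat shock factors, was at 2025, 2169 and 1943 CPM in late spermatocytes, and Hsf3 and Hsf4 stayed under 20 CPM in all 7 classes.

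For the knockout, a gene counted as changed in size when its log2 ratio of CPM + 1 against each wildtype library was at least 1, with one sign, and the smaller ratio was at least 2 times the wildtype pair's own. No member passed in any of the 7 classes, of 7 members at 20 CPM or more in spermatogonia (0.352% of all genes passed), 8 in early spermatocytes (0.257%), 7 in the unnamed cluster (0.393%), 6 in late spermatocytes (0.879%), 7 in round spermatids (1.21%), 6 in elongating spermatids (1.35%) and 10 in myoid cells (3.91%). A share of 0 among so few members is near these backgrounds and is no result about the members. The members' median log2 ratio was 0.17 in spermatogonia (-0.01 for all genes), 0.11 in elongating spermatids (0.02) and 0.10 in round spermatids (-0.03). It was 0.02 in late spermatocytes (0.02), -0.02 in early spermatocytes (0.03), -4.8e-05 in the unnamed cluster (-0.004) and -0.02 in myoid cells (-0.05).

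**Figure D4:**
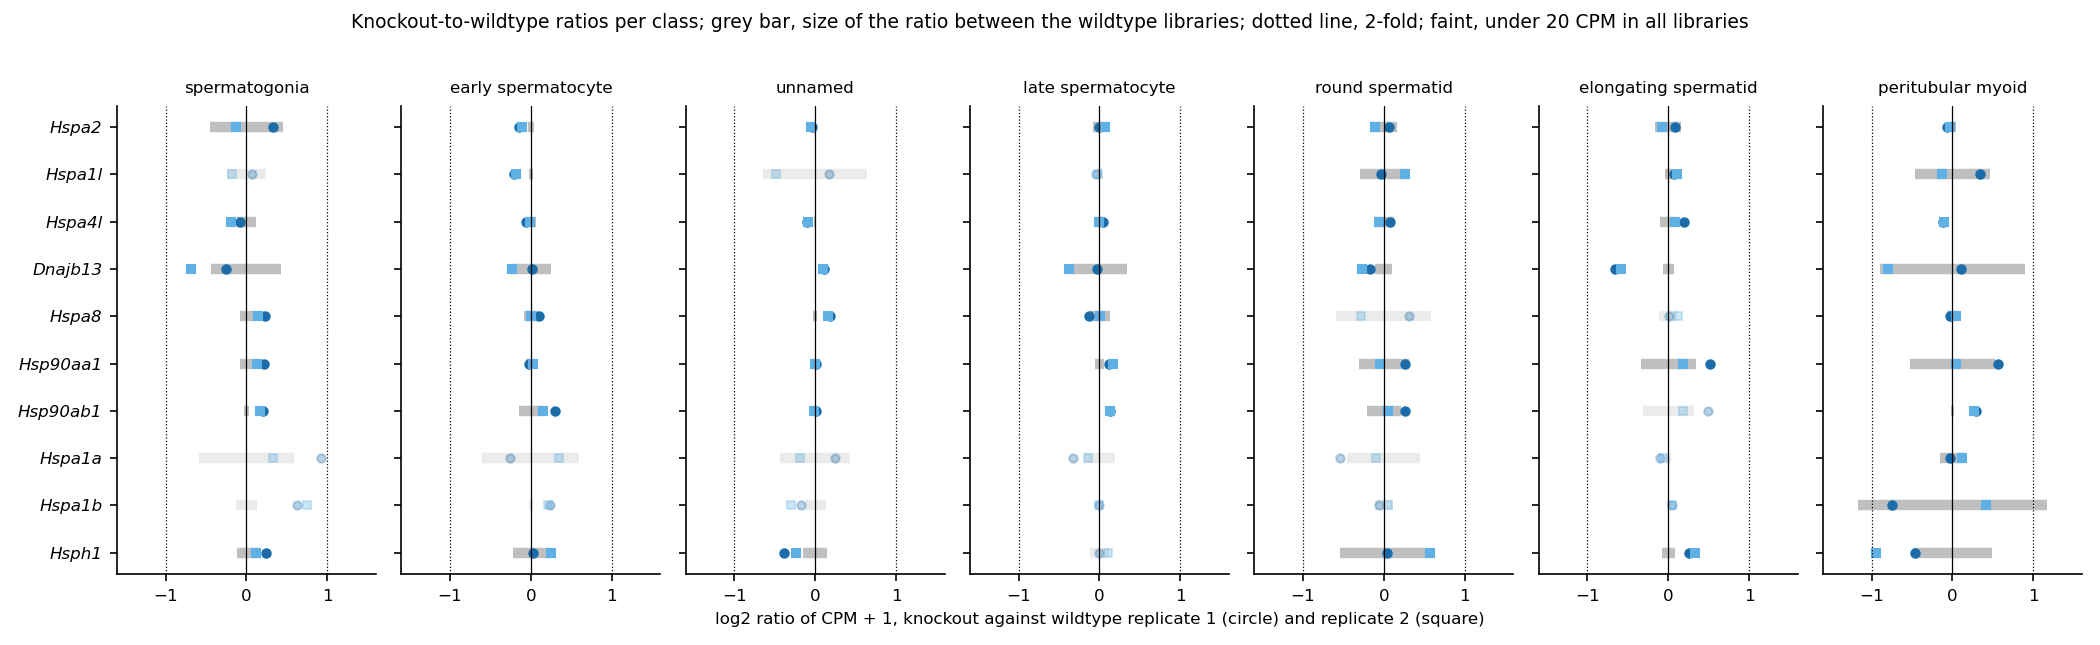
Log2 ratio of the knockout library to each wildtype library for the 10 members in 7 classes, with the ratio of the wildtype libraries as a grey bar, dotted lines at 2-fold and members under 20 CPM drawn faint. No member at 20 CPM or more is past 2-fold against both wildtype libraries.

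Among members at 20 CPM or more, Dnajb13 was the one furthest from both wildtype libraries when elongating spermatids were taken as 1 class. In elongating spermatids it was at 44.7 CPM (interval 42.3 to 47.2) in the knockout library against 69.3 ± 2.40 CPM in wildtype (SD, n = 2), from 1304, 1196 and 1316 UMIs in the knockout and the 2 wildtype libraries. The log2 ratios were -0.66 and -0.59, and that of the wildtype pair was -0.07. At a 1.5-fold threshold it was the 1 member that passed, and 3.37% of all genes passed in that class. In round spermatids the knockout level of 448 CPM (interval 440.2 to 457) was below 523 ± 27.3 CPM. By cluster, the knockout library was lower in the first round spermatid cluster (506 against 568 and 598 CPM) and in the first elongating cluster (68.0 against 112 and 105 CPM). In the second late spermatocyte cluster, at 320.4 against 288 and 328 CPM, it lay between the wildtype libraries. Of 4 spermatid markers in the first elongating cluster, 3 were lower in the knockout library, with Acrv1 at 8.79 against 12.5 and 14.5 CPM, Tnp1 at 34885 against 37985 and 40491 CPM and Prm1 at 95931 against 111284 and 112341 CPM. The fourth, Prm2, was higher, at 68089.9 against 65832 and 66120.1 CPM. The part of the mix of spermatid steps within a cluster in the Dnajb13 difference was not tested.

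Hsp90aa1 lay on the other side in the later clusters. The knockout interval was above both wildtype values in each of germ clusters 6 to 11, and below both in cluster 3 (7574 against 7946 and 8068 CPM). Without regard to intervals, 36.4% to 47.2% of all tested genes were above both wildtype levels in clusters 6 to 11. In cluster 3, 30.6% were below both, so such positions are common among all genes. Hsp90aa1 was at 1820.3 CPM in the first round spermatid cluster against 1413 and 1549.6 CPM, and at 295 CPM in the last elongating cluster against 188 and 250.1 CPM. In round spermatids as a whole, the knockout level of Hsp90aa1 lay between the wildtype libraries. Its log2 ratio there ranged from -0.05 to 0.28 over the processing alternatives. In elongating spermatids as a whole, the knockout level of 177 CPM was above both wildtype values, with log2 ratios of 0.52 and 0.18. The wildtype libraries differed by 0.34 between themselves. Hsp90aa1 was there at 4.05%, 5.45% and 6.16% of its library level. The spermatogonia markers had medians of 14.9%, 16.2% and 12.1%, so Hsp90aa1 in elongating spermatids was not separable from free RNA. In spermatogonia all 3 general members had knockout intervals above both wildtype values, with Hspa8 at 1109.6 against 947 and 1005 CPM and Hsp90ab1 at 2913 against 2536 and 2590.1 CPM. Without regard to intervals, 4 of the 7 members tested there and 33.0% of all tested genes were above both wildtype levels. Hsph1 was at 31.9 CPM in the second elongating cluster against 15.6 and 17.9 CPM, with log2 ratios of 0.98 and 0.80. In that cluster Tnp1 was higher in the knockout library, at 31318 against 24935 and 25992 CPM. Acrv1 (9.52 against 12.2 and 13.1 CPM), Prm1 (121387 against 136325 and 137527 CPM) and Prm2 (99745 against 108643 and 105046 CPM) were lower, and the part of the mix of steps was again not tested. Hsp90aa1 in fibroblasts was at 1878 against 744 and 729 CPM, from 52, 34 and 45 cells, too few in wildtype for the comparison.

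**Figure D5:**
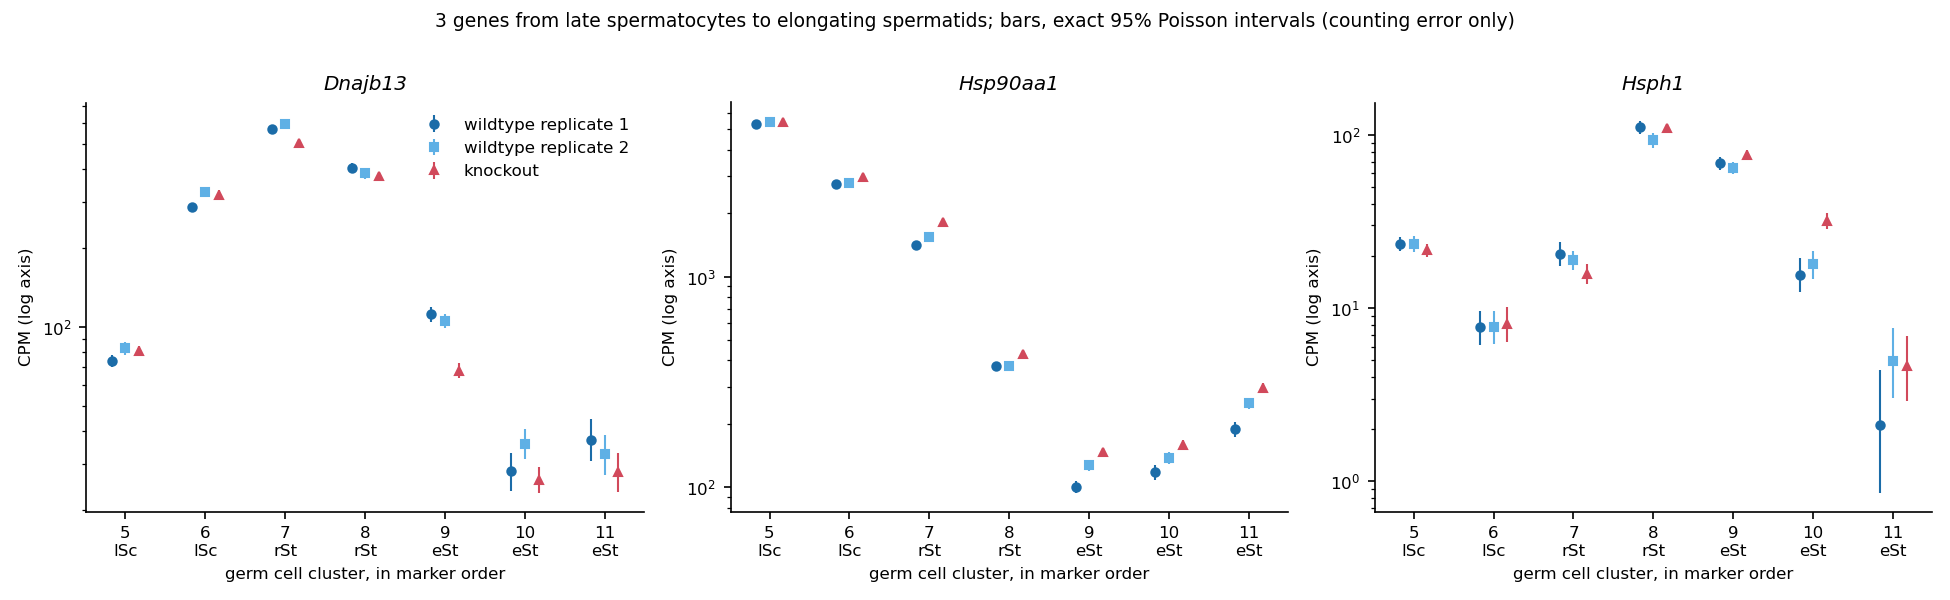
Levels (CPM, with exact 95% Poisson intervals) of Dnajb13, Hsp90aa1 and Hsph1 in germ clusters 5 to 11 by library. In cluster 9, Dnajb13 is at 68.0 CPM in the knockout library and at 112 and 105 CPM in wildtype, while Hsp90aa1 is higher in the knockout library in clusters 6 to 11. In the elongating spermatids, clusters 9 to 11, Hsp90aa1 is not separable from free RNA.

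Of the 77 other chaperone genes, 1 of 64 tested in myoid cells passed the size rule and none did in the 6 germ classes, of 60, 63, 60, 57, 50 and 35 tested from spermatogonia to elongating spermatids. Of all genes, 3.91% passed in myoid cells and 0.257% to 1.35% in the germ classes. The chaperone counts are near these shares and are no result about the chaperone genes. The 1 gene was Hsf5, at 8.5 against 19.4 and 23.3 CPM, whose highest class was the unnamed cluster. Tcp1, a subunit of the cytosolic chaperonin, was higher in the knockout library in all 7 classes without reaching 2-fold, for example at 2659 against 1764 and 1775 CPM in late spermatocytes.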

How the data were processed

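Droplet 3′ single-cell RNA-seq of adult mouse testis was taken as deposited. The authors' raw UMI counts per gene and barcode were made with Cell Ranger 4.0.0, per the file headers; mm10 and Seurat 4.0.5 are named in the submitters' processing notes. The strand setting of counting is not given in the sources used here. Barcodes with at least 1000 UMIs, 500 genes and at most 10% mitochondrial UMIs were kept. Scrublet's automatic threshold marked 0, 1 and 0 barcodes, so the 8% with the highest doublet score were left out (615, 633 and 930), which removed all Leydig cells of wildtype replicate 1. Cells were clustered with scanpy 1.11.5 and Leiden (2000 variable genes without the members and chaperone lists, 30 components, resolution 1) and named from fixed markers. For each class the UMIs of its cells were added up within a library. Genotypes were compared by size only, in the classes where every library had 50 or more cells. Tested on simulated counts with 200 changed genes, the size rule recovered 200 in each germ class with 0 false calls, and 196 with 70 false calls in myoid cells. The knockout group was 1 library, so its spread between mice is not known. These counts check the working of the rule and give no error rate for the data. edgeR 4.0.16 gave the TMM factors of 1 alternative. Members and lists were chosen with earlier results of these data known. Genes named beside the members were, per list, those past the size rule and the 3 highest in wildtype, all transcription factors, and the 3 genes most alike over clusters.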

Additional observations from a re-analysis of the deposited data

How the results depend on the processing

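No paired analysis was possible because the knockout group was 1 library, and no result came from a test. The members' 660 recomputed log2 ratios, over 11 alternatives and without the unnamed cluster, stayed within the wildtype SD of the reported value in 553 cases. The ratio of Dnajb13 in myoid cells (-0.42) became 0.18 with doublets kept and 0.10 without wildtype replicate 2, and that of Hspa1b there (-0.28) became 0.41 without wildtype replicate 1. Other ratios nearer to no change also changed sign. Among these, Hspa4l in myoid cells (-0.11) reached 0.62, Hspa1l in late spermatocytes (-0.03) 0.75 and Hspa1l in spermatogonia (-0.06) 0.41. At 1.5-fold, 1 member passed in elongating spermatids (Dnajb13) where 0 passed at 2-fold. The count of other chaperone genes in myoid cells (1) became 0 with doublets kept, 3 with no CPM minimum and 5 at 1.5-fold, and ranged from 1 to 3 with either wildtype library left out (3 without wildtype replicate 1). In late spermatocytes it became 1 with low-UMI clusters named too and 1 at 1.5-fold, and in spermatogonia 1 with no CPM minimum and 1 at 1.5-fold, each from 0. The cause of these changes was not tested. At 1.5-fold, 9.39% of all genes passed in myoid cells, 1.83% in late spermatocytes and 1.23% in spermatogonia. The highest class of Hspa2 became early spermatocytes with the stricter cell filter and with the members among the clustering genes, that of Hspa4l became elongating spermatids at resolution 2, and that of Hsph1 became round spermatids without wildtype replicate 2. Depth limits the values of Hspa1a and Hspa1b in macrophages, Sertoli cells and fibroblasts, which rest on few UMIs.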
